A study of Homo sapiens with 4 samples.

Results

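BAF45D peaks were compared between human H9 embryonic stem cells (ESC) and the spinal cord neural stem cells (NSC) that were made from this line, and the regions described here lay outside genes and were called in NSC alone. Peaks of the 4 libraries that overlapped by at least 1 bp were merged on chromosomes 1 to 22 and X. A region was kept when it held a peak of NSC1 and a peak of NSC2 and none of ESC1 or ESC2. It also had to overlap no protein-coding gene and to lie more than 1 kb from every start and end of such a gene, in the RefSeq annotation of GRCh38.p14. This rule kept 5395 of 44534 merged regions, and 5395 of the 18025 regions outside genes. The members were chosen by the presence or absence of peaks in the 4 libraries, so the NSC-only shares are a description: 29.9% of regions outside genes, 32% of regions inside genes, 29.6% of regions at gene ends and 30.6% of all regions. Without NSC2 the rule kept 9929 regions, or 63.4% of the regions outside genes, and without NSC1 it kept 8026, or 58.3%.

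The established human line H9 was grown in a defined medium for pluripotent cells. Per the labels, NSC came from these cells by 10 days of neural induction with the BMP receptor inhibitor LDN-193189, the TGF-beta receptor inhibitor SB431542, the WNT pathway activator CHIR-99021, FGF2, FGF8 and the Notch pathway inhibitor DAPT. Maintenance medium with SB-431542, CHIR-99021 and the Hedgehog pathway agonist Hh-Ag 1.5 followed, and after 5 subpassages a medium with FGF2 and EGF. The ROCK inhibitor Y-27632, which aids survival of dissociated cells, was added at passages. The passage that was assayed is not given in the sources used here, nor whether libraries 1 and 2 of a cell type came from separate cultures. The labels name no genetic change in either cell type. The lists hold no RNA values, so cell identity was not checked by expression.

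BAF45D, the product of DPF2, is a subunit of the canonical BAF complex, which uses ATP to slide or evict nucleosomes and so opens chromatin for transcription factors. Much of the DNA that BAF acts on lies far from gene starts, in enhancers, which are short stretches that transcription factors bind and that can raise transcription of a gene over long distances. In neural progenitors such elements are known to surround genes of transcription factors and adhesion molecules. CUT&Tag tethers a transposase to an antibody, so that a peak marks DNA near the antibody's target. The gene nearest to a region is a description of position and not a measured target.

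Some members lay beside microRNA genes or at the starts of long non-coding RNA genes, where RefSeq gives sequences (GRCh38.p14). These sequences were chosen after the reference tables had been seen. MicroRNAs silence messenger RNAs through their seed, bases 2 to 8, which is in capitals here. The mature forms below are those of hairpins next to members, or of hairpins inside the host transcripts MIR99AHG and MIR100HG, which held 13 and 7 members.
miR-9-5p: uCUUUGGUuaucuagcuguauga
miR-30a-5p: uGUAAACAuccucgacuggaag
miR-29a-3p: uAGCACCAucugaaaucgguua
miR-29b-3p: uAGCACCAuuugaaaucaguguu
miR-219a-5p: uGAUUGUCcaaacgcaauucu
let-7i-5p: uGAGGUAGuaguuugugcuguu
let-7c-5p: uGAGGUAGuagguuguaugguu
let-7a-5p: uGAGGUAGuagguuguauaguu
miR-99a-5p: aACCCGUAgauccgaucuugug
miR-100-5p: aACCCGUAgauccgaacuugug
miR-125b-5p: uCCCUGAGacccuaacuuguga
In all, 3 groups shared a seed: the let-7 forms, miR-99a with miR-100, and miR-29a with miR-29b. miR-9, which is abundant in neural progenitors, is encoded at several places in the genome with the same mature sequence.

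The second set of sequences shows members that covered the start of a long non-coding RNA gene, as the part of the RefSeq start window (250 bases before to 50 bases after the start) that lay in the member, on the strand of the gene. LINC02409 (chr12:97275275-97275574, minus strand) was the strongest member with both NSC summits inside such a window. LINC01392 (chr7:115231306-115231526, minus strand) and LOC400940 (chr2:5981728-5981987, plus strand, nearest to SOX11) were the strongest with both summits and the letters of an AP-1 site. RMST (chr12:97464843-97465142, plus strand), a long non-coding RNA of neural differentiation that is known to bind SOX2, was chosen after its values were seen. The annotated RMST gene begins at 97462804, so this start window lies inside the gene and not at its first base. Capitals mark matches to 12 short motifs searched on both strands: AP-1 TGANTCA, SOX CATTGTT, octamer ATGCAAA, TEAD GGAATG, E-box CAGCTG, homeobox TAATTA, FOX TGTTTAC, ETS CCGGAAG, NRF1 GCATGCG, the letters TATAAA of the TATA box, the box named by its letters CCAAT, and GGGCGG of the GC box. Matches may overlap, as the AP-1 and E-box letters did in LOC400940.
LINC02409: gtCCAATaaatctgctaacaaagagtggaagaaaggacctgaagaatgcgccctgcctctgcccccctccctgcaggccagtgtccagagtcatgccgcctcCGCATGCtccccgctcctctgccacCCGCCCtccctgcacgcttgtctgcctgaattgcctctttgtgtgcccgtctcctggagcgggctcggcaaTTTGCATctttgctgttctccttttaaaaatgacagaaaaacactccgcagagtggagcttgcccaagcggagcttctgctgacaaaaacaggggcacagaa
LINC01392: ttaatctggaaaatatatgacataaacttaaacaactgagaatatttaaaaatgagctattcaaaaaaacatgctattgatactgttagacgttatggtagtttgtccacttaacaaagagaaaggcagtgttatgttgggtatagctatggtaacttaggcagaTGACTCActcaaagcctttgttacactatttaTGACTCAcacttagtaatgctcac
LOC400940: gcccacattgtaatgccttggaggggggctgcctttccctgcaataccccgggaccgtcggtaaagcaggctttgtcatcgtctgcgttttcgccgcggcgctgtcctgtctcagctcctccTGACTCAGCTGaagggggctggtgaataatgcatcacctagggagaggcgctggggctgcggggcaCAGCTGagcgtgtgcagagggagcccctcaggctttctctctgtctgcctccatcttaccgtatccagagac
RMST: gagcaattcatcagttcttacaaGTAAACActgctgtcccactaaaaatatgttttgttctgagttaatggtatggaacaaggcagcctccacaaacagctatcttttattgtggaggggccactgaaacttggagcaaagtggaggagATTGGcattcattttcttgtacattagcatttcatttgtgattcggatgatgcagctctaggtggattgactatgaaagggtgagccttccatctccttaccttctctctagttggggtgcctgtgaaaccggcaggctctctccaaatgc
Each of the 4 starts lay over 200 kb from the nearest protein-coding gene. The member at LINC02409 was 321 kb from NEDD1, which recruits gamma-tubulin to centrosomes, and had −log10 q of 44.2 in NSC1 and 35.2 in NSC2. At LINC01392, 211 kb from MDFIC, the values were 34.2 and 15.1. At LOC400940 they were 15.9 and 12.8, and at RMST 14.7 and 10.6. The order of strength was the same in both NSC libraries at these 4 starts. They were chosen by strength in these libraries or after their values were seen, so the order is a description only.

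Depth and list length differed between the libraries. The file headers gave 18953543 to 20734829 tags for the ESC libraries and 5377831 to 5566407 for the NSC libraries, while the lists held 4204 peaks (ESC1), 12533 (ESC2), 29783 (NSC1) and 24669 (NSC2). Members took 5473 peaks of NSC1, or 18.4% of its list, and 5536 peaks of NSC2, or 22.4%. Absence of an ESC peak means that no signal passed the threshold of that list, and a level of ESC binding at the members was not measured. Since 2 libraries per cell type allow no permutation p (exact, two-sided) under 0.33, no test across libraries was made. Intervals below are 95% Wilson intervals over regions and cover counting error only.

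The members were moderately strong peaks of the NSC lists. The authors' −log10 q ranged from 1.31 to 70.9 in NSC1, with a median of 6.90, and from 1.30 to 58.7 in NSC2, with a median of 5.87. As a place within each list, where 100 is the strongest peak, the median member stood at 63.1 in NSC1 and 56.8 in NSC2. NSC-only regions inside genes stood at 63.0 and 56.2, and those at gene ends at 61.1 and 54.5. Regions outside genes that both NSC libraries shared with ESC stood higher, at 77.3 and 79.0 (n = 674). The members thus resembled other NSC-only regions in strength and lay below the regions outside genes that ESC shared.

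**Figure D1:**
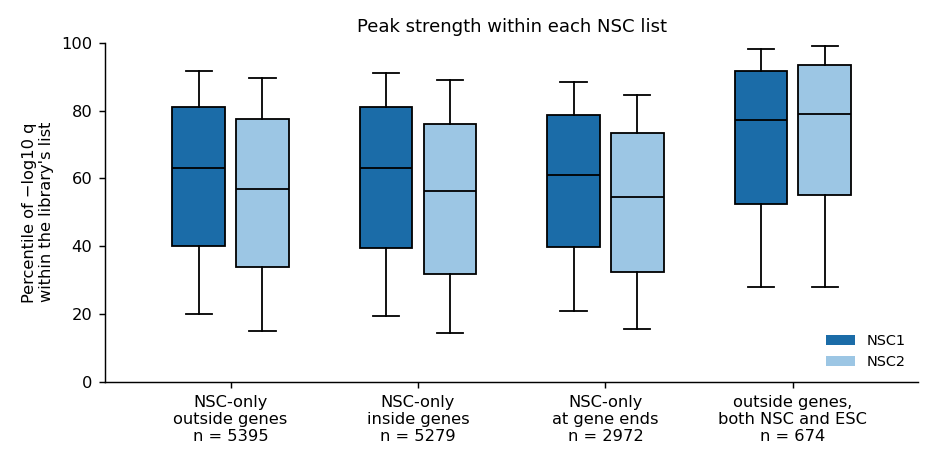
Percentile of −log10 q within the NSC1 list (dark) and the NSC2 list (light) for NSC-only regions outside genes, inside genes and at gene ends, and for regions outside genes that ESC shared. Boxes show quartiles with the median line and whiskers the range from the tenth to the ninetieth percentile of regions. The medians of the NSC-only classes lie between 54.5 and 63.1, and those of the shared class at 77.3 and 79.0.

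The rule merged overlapping peaks of both NSC libraries, so how close their summits lay is in part set by it and is given as a description. The median member was 471 bp wide, and the strongest summits of NSC1 and NSC2 lay a median of 48 bp apart, with 52.1% of members within 50 bp. Most members had a single summit, and 15.9% had several in NSC1 and 12.5% in NSC2. Across the 5395 members, Spearman's rho between the −log10 q of NSC1 and NSC2 was 0.621, given as a description over regions that share libraries. The rho was 0.596 for NSC-only regions inside genes, 0.526 at gene ends and 0.758 for the shared regions outside genes. At −log10 q of at least 5 in both lists, 2659 members remained (49.3%).

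The strongest members lay near genes of several families. The first by mean percentile was 150.4 kb from ADCY2, an adenylyl cyclase gene, on the 5′ side (chr5:7244768-7245718), with −log10 q of 70.9 in NSC1 and 45.5 in NSC2. The second lay over the pseudogene ANKRD18DP, 28.1 kb from LMLN, a metallopeptidase gene (chr3:198071773-198072257, 61.2 and 47.6). The third was 34037 bp from EPHB3, an ephrin receptor gene (chr3:184616445-184617006, 48.5 and 52.5). All 3 stood in the top percent of both lists.

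Neural regulators and signalling genes were among the other 7. A region 335 kb on the 5′ side of POU3F2, a POU domain factor of neural progenitors also called BRN2, had −log10 q of 48.7 and 51.4 (chr6:98498243-98499283). A region 54.3 kb from EDNRB, the endothelin receptor of neural crest and radial glia, had 44.3 and 58.7 (chr13:78029847-78030790). A region 95.1 kb from OGFRL1 had 54.0 and 44.2 (chr6:71404202-71405672), and its nearer neighbour was the microRNA gene MIR30A, 581 bp away. The remaining members of this group were nearest to LRATD2 (58.1 and 43.3), to TMEM47, a membrane protein of cell junctions (53.4 and 44.0), to the zinc finger factor KLF6 (48.6 and 46.5, over LINC00702) and to RHEB, the GTPase that activates mTORC1 (47.2 and 46.4). Distances of the 10 ran from 5.60 kb (RHEB) to 457 kb (KLF6), and the closest ESC peak lay 15.3 kb (OGFRL1) to 643 kb (LRATD2) away. The weakest members, near TGIF2LX (1.36 and 1.49), SOX5 (1.56 and 1.36) and ZFHX3 (1.55 and 1.54), stood just above the authors' threshold in both lists.

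Members lay far from genes. The median distance to the nearest protein-coding gene was 101 kb, with quartiles of 31.5 and 273 kb and a range of 1.005 to 4315 kb. Regions outside genes with a peak of 1 NSC library alone had a median of 90.9 kb (n = 6895), and those that both NSC libraries shared with ESC had 26.5 kb. More than 100 kb separated 50.3% of members from any such gene (49.0 to 51.6), against 48.0% (46.8 to 49.2) for 1 NSC library alone and 26.6% (23.4 to 30.02) for the shared regions. The intervals of members and shared regions did not overlap, and those of members and regions of 1 NSC library did.

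**Figure D2:**
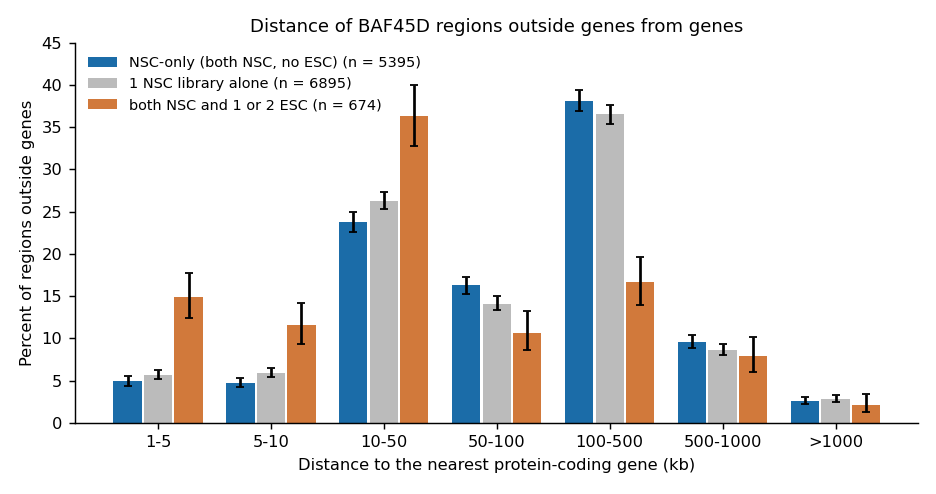
Percent of regions outside genes (vertical axis) by distance to the nearest protein-coding gene in kb (horizontal axis), for NSC-only regions, regions of 1 NSC library alone, and regions of both NSC libraries with an ESC peak. Bars start at 0 and error bars are 95% Wilson intervals. At 100 to 500 kb stood 38.1% of NSC-only regions and 16.6% of shared regions, and at 1 to 5 kb 4.95% and 14.8%.

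Strength differed little with distance. Members within 5 kb of a gene had median percentiles of 59.2 in NSC1 and 55.8 in NSC2, and members at 100 to 500 kb had 64.3 and 58.4. Of 4161 members whose nearest gene had a strand in the start table, 52.0% lay on the 5′ side (50.5 to 53.5), against 51.3% (50.3 to 52.3) of the other regions outside genes. At the 1 kb limit of the rule, the nearest members were 1005 bp from EFS, 1011 bp from CHD4, a chromatin remodeller gene, and 1035 bp from the forkhead factor gene FOXO3. NSC-only regions just excluded lay 976 bp from KCNJ3, 974 bp from MEX3B and 971 bp from CDCA2. At the other end, the farthest members lay 4315 kb from OR11H1 on chromosome 22 (10.7 and 8.69), 2223 kb from PCDH7, a protocadherin gene on chromosome 4 (5.33 and 9.33), and 2026 kb from LOC124900173 on the same chromosome (1.94 and 1.64).

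The next member lay at a median of 74.8 kb, and 9.29% of members had another within 5 kb, 15.9% within 10 kb and 42.4% within 50 kb. Across chromosomes, members made up 14.5% of the regions outside genes on chromosome 19 and 16.0% on chromosome 22, the lowest shares. The highest were 34.95% on chromosome 18 and 34.4% on chromosome 3.

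Peaks at the nearest gene itself were not used to choose the members. The nearest gene had a gene-end peak (within 1 kb of its start or end) in both NSC libraries for 37.2% of members (35.9 to 38.5). The same held for 35.2% (34.1 to 36.3) of regions of 1 NSC library alone and for 32.8% (29.4 to 36.4) of the shared regions. Over all 19970 protein-coding genes it was 34.5% (33.9 to 35.2). Over the other regions outside genes it was 33.97% (33.2 to 34.8). The interval of members thus lay apart from that of the other regions, by a few percentage points. It overlapped those of regions of 1 NSC library alone and of shared regions. It also lay apart from that of all genes, but the share of members counts regions and that of all genes counts each gene once. Of the 2712 genes nearest to a member, each counted once, 35.03% (33.3 to 36.8) had such a peak. This interval overlapped that of all genes. The share of members did not grow with strength, with 36.2% in the weakest and 37.0% in the strongest of 4 equal groups of members. With all lists limited to −log10 q of at least 5, peaks at gene ends included, the share was 24.2% for members, 20.9% for the other regions and 22.4% for all genes. There the interval of members (22.7 to 25.9) overlapped that of all genes (21.8 to 22.99) and not that of the other regions (19.8 to 22.1). At equal list length the shares of members, other regions and all genes were 11.8%, 7.195% and 8.28%, with the interval of members apart from both others.

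ESC peaks around the members, outside the regions themselves, were counted too. An ESC peak outside the region but within 10 kb was present for 7.53% of members (6.85 to 8.26) and for 8.47% (7.84 to 9.15) of regions of 1 NSC library alone. The intervals of these 2 classes overlapped. Such a peak was present for 36.9% (33.4 to 40.7) of the regions that both NSC libraries shared with ESC, which were chosen for holding an ESC peak. Over all other regions outside genes, some of which also hold an ESC peak, it was 14.2% (13.6 to 14.8). The value of members depended more on the longer ESC list: it was 2.20% without ESC2 and 6.71% without ESC1. At −log10 q of at least 5 it was 3.15%, and at equal list length 2.71%. These last settings also shortened the NSC lists and left 2763 and 701 members.

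Members were spread over many nearest genes. Of 19970 protein-coding genes, 2712 were nearest to at least 1 member (13.6%), 1620 of them to 1 member, 210 to 5 or more and 28 to 10 or more. The 210 genes held 27.4% of all members. Wide gaps between genes hold more regions of every kind, so each count is given beside the other regions outside genes nearest to the same gene. The side of a gene on which members lie depends on its neighbours too, because only regions outside genes and nearest to it count.

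**Figure D3:**
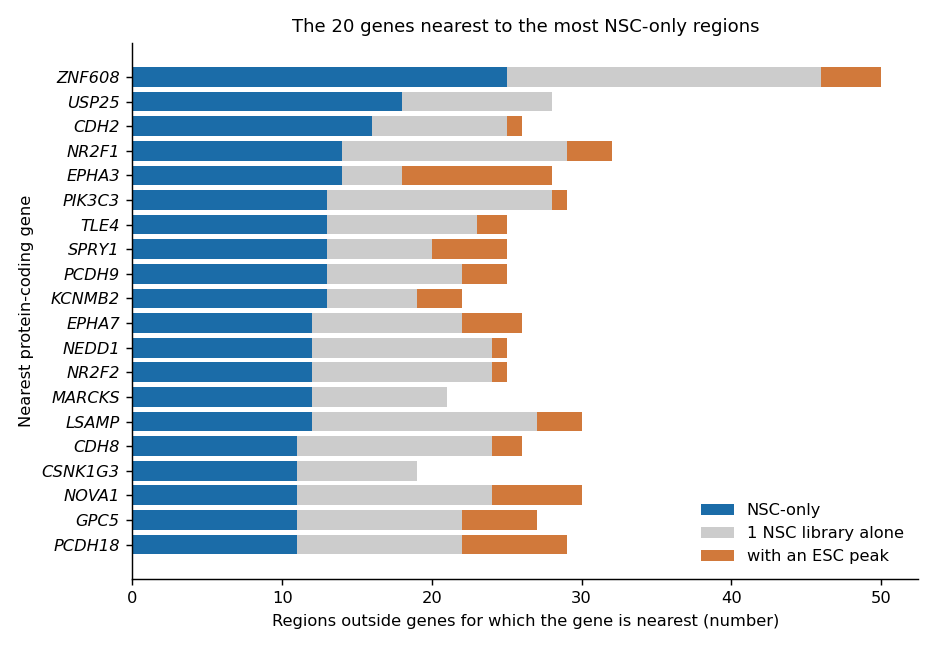
Number of regions outside genes (horizontal axis) whose nearest protein-coding gene is the one named, for the 20 genes with the most NSC-only regions. Colours split each bar into NSC-only regions, regions of 1 NSC library alone and regions with an ESC peak. ZNF608 has 25 of 50, and EPHA3 is the gene with the most regions that hold an ESC peak, 10 of 28.

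ZNF608, a zinc finger gene, stood first with 25 members among 50 regions, 4 of which held an ESC peak. Its members lay 2.26 to 736 kb from the gene, 17 on the 5′ side and 8 on the 3′ side, with −log10 q of 3.01 to 23.2 in NSC1 and 1.43 to 26.4 in NSC2. USP25, a deubiquitinase gene, was nearest to 18 members of 28 regions, none with an ESC peak. The range there was 1.56 to 48.7 in NSC1 and 1.64 to 35.7 in NSC2, and the closest member was 106 kb away. CDH2, which encodes N-cadherin, the main cadherin of neural progenitors, was nearest to 16 of 26 regions, 1 of them with an ESC peak. Its strongest member lay 9.64 kb from the gene (chr18:27922075-27923238, 34.3 and 30.3). Without NSC2 the counts of ZNF608 and NR2F1 were 42 and 26. At equal list length ZNF608, USP25, CDH2 and NR2F1 were nearest to 6, 5, 2 and 4 members and EPHA3 to 0, and USP25 to 1 when non-coding genes and pseudogenes also counted as genes.

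The orphan nuclear receptor genes NR2F1 and NR2F2, which pattern the developing nervous system, had 14 and 12 members. The 14 of NR2F1 all lay on the 5′ side, 79.1 to 942 kb away, and the strongest had −log10 q of 24.9 and 23.1 (chr5:92712993-92714136). On its 3′ side a member at 29.0 kb (NSC1) and 29.2 kb (NSC2) from the start was nearest to another gene. Peaks of both NSC libraries at 38.3 and 94.3 kb on that side lay in no member. The members of NR2F2 lay 258 to 807 kb away, 7 on the 5′ side and 5 on the 3′ side. EPHA3, an ephrin receptor gene, had 14 members, and 10 of its 28 regions held an ESC peak. EPHA7, another ephrin receptor gene, had 12 members with −log10 q of 3.62 to 40.1 and 4.19 to 45.2, and 10 of the 12 had at least 5 in both lists.

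Signalling and adhesion genes followed. PIK3C3, a lipid kinase gene of autophagy, TLE4, a Groucho co-repressor, SPRY1, an inhibitor of receptor tyrosine kinase signalling, PCDH9, a protocadherin, and KCNMB2, a potassium channel subunit, each had 13 members. All 13 of SPRY1 lay on the 3′ side, 14.7 to 615 kb away, and all 13 of KCNMB2 on the 5′ side. At PIK3C3 the median distance was 1267 kb, so these members lay deep in the gap beside the gene. NEDD1, MARCKS and LSAMP had 12 members each. POU3F2 had 9 members, all on its 5′ side at 118 to 717 kb, of 18 regions, and SOX11, a factor of neuronal precursors, had 10 of 21.

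The peaks around some of these genes are shown in the map of 4 loci. Within 1000 kb of the start of ZNF608, ESC1 and ESC2 had 1 and 4 peaks and NSC1 and NSC2 had 74 and 64. Around NR2F1 the counts were 3, 6, 37 and 26, and around CDH2 1, 3, 27 and 27. At MIR9-2HG, the host gene of MIR9-2, they were 2, 8, 30 and 28. These windows held 38, 15, 15 and 16 members. The whole lists held 4204 (ESC1), 12533 (ESC2), 29783 (NSC1) and 24669 (NSC2) peaks. ZNF608, NR2F1 and CDH2 were among the genes nearest to the most members, so few ESC peaks beside many NSC peaks there are in part set by the choice.

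**Figure D4:**
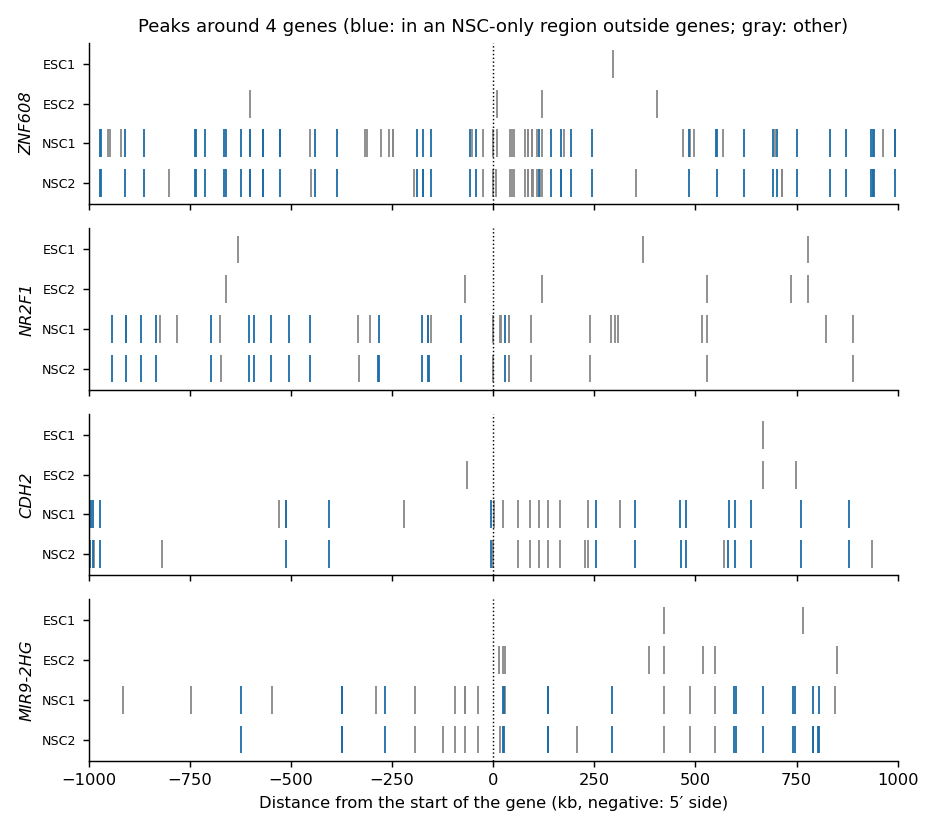
Peaks of ESC1, ESC2, NSC1 and NSC2 (rows) within 1000 kb of the start of ZNF608, NR2F1, CDH2 and MIR9-2HG, by distance from the start in kb (horizontal axis; negative values lie on the 5′ side). Blue ticks are peaks in NSC-only regions outside genes and gray ticks all other peaks. ESC rows hold 1 to 8 peaks per locus and NSC rows 26 to 74, from whole lists of 4204 (ESC1), 12533 (ESC2), 29783 (NSC1) and 24669 (NSC2) peaks.

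Of 25 gene lists, several neural ones were nearest to members more often than to other regions outside genes (n = 12630). These other regions include the 6895 of 1 NSC library alone, and shares by list were not computed for that class. Whether the differences are particular to members was thus not tested. Of 50 neural progenitor transcription factors, 36 were nearest to at least 1 member. Together they had 145 members, or 2.69% (2.29 to 3.15), against 1.77% (1.56 to 2.02) of the other regions. NR2F1, NR2F2 and SOX11 led the list with 14, 12 and 10 members, beside 15, 12 and 4 regions of 1 NSC library alone. ZIC1 had 8 members and SOX2 had 6, the strongest of them 527 kb away (35.3 and 23.2). This order turned when every gene within 100 kb was counted in place of the nearest gene, with 0.797% of members and 0.831% of other regions. Of the 674 regions outside genes that both NSC libraries shared with ESC, 15 (2.23%) were nearest to a neural progenitor factor, close to the share of members. In the same class the shares were 0.742% for axon guidance genes, 0.593% for neural adhesion genes and 0.297% for neural stem cell markers.

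Axon guidance genes, the ligands and receptors that steer growing axons, showed the steadiest difference. Of 42 genes, 30 were nearest to 119 members, or 2.21% (1.85 to 2.63), against 1.23% (1.05 to 1.43) of the other regions. EPHA3, which had no member at equal list length, EPHA7 and SLIT2 led. Beside their 14, 12 and 9 members stood 4, 10 and 3 regions of 1 NSC library alone. SLIT2, a repellent ligand of the ROBO receptors, had 9 members of 13 regions, 1 with an ESC peak, and its strongest member lay 409 kb away (21.7 and 15.8). Within 100 kb the shares were 0.871% and 0.483%. The intervals stayed apart under all 10 alternatives tried for this list.

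Adhesion genes of the nervous system held the most members of any list. Of 50, 37 were nearest to 197 members, or 3.65% (3.18 to 4.19), against 2.53% (2.27 to 2.81). CDH2, PCDH9 and LSAMP led with 16, 13 and 12 members, beside 9, 9 and 15 regions of 1 NSC library alone. CDH8 and PCDH18 had 11 members each and CDH11 had 10. The intervals overlapped without ESC2, outside all annotated genes and for genes within 100 kb, so they stayed apart in 7 of 10 alternatives. Neural stem cell markers, some of which also stand in the other neural lists, had 48 members at 14 of 24 genes. This was 0.890% (0.672 to 1.18) against 0.507% (0.397 to 0.647), apart in 4 of 10. CDH2, which is also in the adhesion list, took 16 of the 48 members and 10 of the 64 other regions. The shares without CDH2 were not computed. Among the other markers SOX9, a factor of neural stem cells and glia, had 5 members, the strongest 721 kb away (33.9 and 33.6). PAX6, a factor of progenitors in the ventricular zone, had 3, the strongest 57.9 kb away (28.5 and 17.9).

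**Figure D5:**
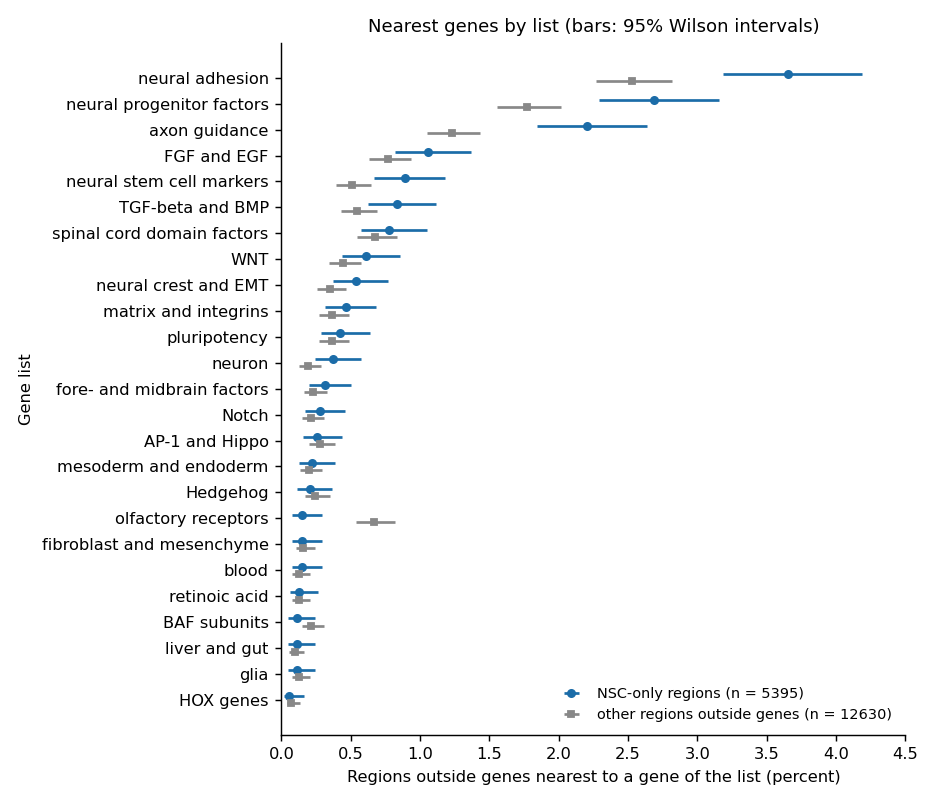
Percent of regions outside genes (horizontal axis) whose nearest gene belongs to each of 25 lists (vertical axis), for the 5395 NSC-only regions (circles) and the 12630 other regions outside genes (squares). Bars are 95% Wilson intervals. The neural adhesion, neural progenitor and axon guidance lists stand apart toward members at 3.65%, 2.69% and 2.21%, and olfactory receptors toward the other regions at 0.665%.

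Position genes of the spinal cord showed no such difference. Spinal cord domain factors had 42 members at 21 of 48 genes, or 0.778% (0.576 to 1.05) against 0.673% (0.545 to 0.831). They included NKX6-1, a factor of ventral progenitors, with 7 members all on the 3′ side, at 51.6 to 421 kb, ISL1 of motor neurons with 4 and the dorsal factor PAX3 with 4. HOX genes, which set position along the body axis, were nearest to 3 members, beside HOXC4 (16.5 and 5.99), HOXB1 (6.46 and 7.52) and HOXB9 (5.14 and 8.59), each at 25.3 kb or less. Their share was 0.0556% against 0.0713%, from 3 members and 9 other regions. The rule leaves out regions inside or within 1 kb of protein-coding genes, so these counts do not describe BAF45D within the HOX clusters. Forebrain and midbrain factors had 17 members, or 0.315% against 0.230%. The intervals of members and other regions overlapped for all 3 of these lists.

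For signalling lists the intervals of members and other regions overlapped. FGF and EGF genes had 57 members at 18 of 39 genes (1.06% against 0.768%), led by SPRY1, SPRY2 with 7 and FGF20 with 4. TGF-beta and BMP genes had 45 at 15 of 39 (0.834% against 0.546%), led by the activin receptor gene ACVR2A with 8, BMP2 with 6 and TGFB2 with 6. WNT genes had 33 at 24 of 58 (0.612% against 0.443%), among them the inhibitor genes DKK2 and SFRP1 with 4 each. Notch genes had 15 at 7 of 25 (0.278% against 0.214%), led by the target gene HEY2 with 5 and the ligand gene JAG1 with 3. Hedgehog genes had 11 at 4 of 16 (0.204% against 0.245%), of which GAS1, a co-receptor gene, took 8. Retinoic acid genes had 7 at 5 of 18 (0.130% against 0.127%), among them CRABP1 and RARB with 2 each. The intervals lay apart for TGF-beta and BMP genes in 2 of 10 alternatives, without NSC1 (0.835% against 0.435%) and at −log10 q of at least 5 (0.905% against 0.285%), and for FGF and EGF genes in 1, without NSC2 (1.03% against 0.610%).

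For lists of other cell types the intervals of members and other regions overlapped, olfactory receptors excepted. Pluripotency genes had 23 members at 8 of 31 genes (0.426% against 0.364%), of which 6 belonged to SOX2, which neural progenitors also express, and 5 to DPPA4. Neuronal genes had 20 at 8 of 28 (0.371% against 0.190%), including MAP2 with 5 and NEFL with 3, the strongest of these at 36.1 and 42.8. Neural crest genes had 29 at 7 of 19 (0.538% against 0.348%), led by ETS1 with 9 and EDNRB with 5. Glial genes had 6 (0.111% against 0.127%), mesoderm and endoderm genes 12 (0.222% against 0.198%), and fibroblast and mesenchyme genes 8 (0.148% against 0.158%). Blood genes had 8 (0.148% against 0.127%), and liver and gut genes 6 (0.111% against 0.0950%). Matrix and integrin genes had 25 (0.463% against 0.364%), AP-1 and Hippo genes 14 (0.260% against 0.277%), and subunits of the BAF complex 6 (0.111% against 0.214%). The intervals were apart for neuronal genes and for BAF subunits in 1 of 10 alternatives each. Olfactory receptor genes, which serve smell, were nearest to 8 members (0.148%, 0.0752 to 0.292) against 0.665% (0.538 to 0.823) of the other regions. These intervals lay apart in 9 of 10 alternatives. Of the 84 other regions, 20 were nearest to OR11H1 alone, 17 of them with an ESC peak. Regions near the same gene share a locus, so they are not independent, and the intervals of all lists are too narrow for that reason.

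The rule used protein-coding genes, so members could overlap non-coding genes. Of the members, 31.6% (30.3 to 32.8) overlapped at least 1, against 30.5% (29.7 to 31.3) of the other regions outside genes. Long non-coding RNA genes were overlapped by 1602 members, or 29.7% (28.5 to 30.9), against 26.2% (25.4 to 26.9). Transfer RNA genes went the other way, with 4 members (0.0741%, 0.0288 to 0.190) against 173 other regions (1.37%, 1.18 to 1.59). Pseudogenes were overlapped by 27 members and 159 other regions. Members thus lay more often over long non-coding RNA genes and less often over transfer RNA genes than the other regions, with intervals apart.

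MIR99AHG and MIR100HG are related host genes whose introns carry the miR-99 or miR-100, let-7 and miR-125b microRNAs printed above. MIR99AHG, on chromosome 21 beside USP25, held 17 regions, and 13 of them were members, the most of any non-coding gene (4 members at equal list length). NSC1 and NSC2 had a peak in 15 each and the ESC libraries in none. The members' −log10 q was 1.56 to 48.7 in NSC1, with a median of 11.1, and 1.64 to 35.7 in NSC2, with a median of 9.04. MIR100HG, on chromosome 11, held 11 regions, 7 of them members, again with no ESC peak, at 2.86 to 32.9 (median 14.2) and 3.77 to 43.5 (median 7.18). The closest members lay 4.37 kb from MIRLET7A2, 29.5 kb from MIR125B1 and 24.0 kb from MIRLET7C. Members were thus spread over both hosts and not placed on the hairpins.

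The other non-coding genes named in this paragraph held fewer, and they were chosen after their values were seen. SOX2-OT, which surrounds SOX2, held 12 regions, 4 of them members and 4 with an ESC peak. MIR9-2HG held 8, 4 of them members and 3 with a peak of ESC2. MIR9-3HG held 2, both members. RMST held 3, with NSC1 peaks in all and 1 member, the one printed above. MEF2C-AS1 held 4 members beside 3 other regions, NR2F1-AS1 held 2 beside 3 and DLEU1 held 6 beside 8.

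Close to microRNA genes, members were no more common than other regions. Within 2 kb of the 1558 hairpins in the table lay 12 members (0.222%), beside 14 hairpins, and 35 other regions (0.277%). The strongest was the member 581 bp from MIR30A. A member over MIR29B1 and 213 bp from MIR29A, which share a seed, had 13.1 and 16.9 (chr7:130877023-130877962). Members lay 702 bp from MIR9-2 (11.3 and 5.65) and 424 bp from MIR9-3 (5.74 and 6.57), and no member lay within 50 kb of MIR9-1. An ESC peak was in all 3 regions within 50 kb of MIR9-1, in 3 of 6 at MIR9-2 and in 2 of 4 at MIR9-3. Others lay 280 bp from MIRLET7I (8.36 and 4.29) and 616 bp from MIR219A2, a microRNA known for oligodendrocyte maturation (2.53 and 3.11).

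Start windows of non-coding genes gave a view of the sequence at or beside a small part of the members. A window counted as touched when a member overlapped it by at least 1 bp. All 300 bases were then read, also those outside the member. Of 12830 windows, 185 (1.44%) were touched by 162 members, or 3.00% of all members, and 2.16% of the other regions touched one. In 82 windows both NSC summits lay inside. The median GC content was 49.7% in the 185 windows, 58.8% in the 304 windows touched by other regions outside genes, and 50% in the 12645 windows that no member touched, some of which other regions touched. In the 82 windows with both NSC summits inside it was 54.5%.

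Some letters were more frequent in the windows that members touched. The AP-1 letters TGANTCA, as in LINC01392 and LOC400940 above, were in 22.2% of the 185 windows, in 11.2% of windows touched by other regions and in 10.1% of windows that no member touched. The homeobox letters TAATTA were in 14.6%, 3.29% and 7.26%, and the SOX letters CATTGTT in 8.11%, 3.62% and 4.67%. No intervals were computed for letters other than AP-1, so their shares are a description and were not tested. The ETS letters CCGGAAG were in 5.95%, 13.2% and 5.85%, and the NRF1 letters GCATGCG in 2.16%, 7.57% and 2.63%, so these were frequent in the windows of the other regions. The E-box CAGCTG was in 22.7%, 19.4% and 17.7%, TEAD GGAATG in 18.4%, 19.1% and 17.1%, the octamer ATGCAAA in 6.49%, 4.61% and 5.52%, and FOX TGTTTAC in 4.32%, 3.29% and 4.41%. The TATA box was in 15.7%, 6.25% and 15.1%, CCAAT in 32.4%, 37.2% and 34.5%, and the GC box in 34.6%, 42.4% and 25.5%. The AP-1 share was 19.5% in the 82 windows with both summits inside and 23.5% with 1 window per member. In the same 82 windows the homeobox letters were in 12.2%, the SOX letters in 12.2% and the GC box in 42.7%. Windows at gene starts stand for few of the members, and a match of letters is a description and not a bound site.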

How the data were processed

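BAF45D binding was measured by CUT&Tag in 2 ESC and 2 NSC libraries of 100000 cells each. Per the submitters' processing notes, FastQC, Trimmomatic and BWA 0.7.12 were used with build hg38. Peaks were called for each library alone with MACS2 2.1.0.20150420, without a control library, at q 0.05, per the file headers. Each list as the authors deposited it gives for every peak a pileup (signal), −log10 p and −log10 q values, and a fold enrichment (ratio to the local background of that library). These values share no scale between lists, so they were used only to describe and rank peaks within 1 list. A control antibody library was not used here.

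Entries with the same start and end were joined, keeping the strongest −log10 q. Regions were merged and placed with Python 3.11.15 and pandas 2.3.3 against RefSeq GRCh38.p14, and the steps were tested on simulated regions. The members and the gene lists were chosen with earlier results of these data known. Genes were named by rule: the 10 strongest members, the 10 genes nearest to the most members, the 3 genes of each list nearest to the most, the 3 farthest members and those at the 1 kb limit, and others were named after their values were seen. Some genes that the rule names are not reported here. Motif and GC results planned around the summits were not run, because no genome sequence was used here, and start windows of non-coding genes took their place. No p-value was computed.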

Additional observations from a re-analysis of the deposited data

Results flagged for a closer look

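Among sequences that are not chromosomes 1 to 22 or X, 323 merged regions were found, and 9 of them held a peak of both NSC libraries and none of ESC. These sequences were not used above, and the number was listed because it exceeded the 3 that a count of 0 allows. No gene was assigned to these regions.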

How the results depend on the processing

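Results were recomputed leaving out each library, at −log10 q of at least 5, with NSC peaks overlapping by 50% of the shorter peak, at equal list length (4204 peaks per list), more than 5 kb from genes and outside all annotated genes. Leaving out 1 library, the number of members ran from 5406 to 9929, the NSC-only share of regions outside genes from 31.6% to 63.4%, the median distance from 93.4 to 101 kb, the share whose nearest gene had NSC gene-end peaks from 37.2% to 45.7%, and the share with an ESC peak within 10 kb from 2.20% to 8.34%. At −log10 q of at least 5 these 5 values were 2763, 36.0%, 99.6 kb, 24.2% and 3.15%. At equal list length they were 701, 18.2%, 118 kb, 11.8% and 2.71%. With 50% overlap the share was 28.6% and the distance 103 kb, beyond 5 kb the distance was 112 kb, and outside all annotated genes the number was 3564, the distance 101 kb and the ESC share 6.59%. Taking every summit as its own entry could not change merged regions by construction, so it is not among the 10 alternatives counted for the lists. For lists of genes, the difference in percent between members and other regions turned for neural progenitor factors to -0.0343 with all genes within 100 kb, and the cause was not tested. The AP-1 share, including 2 alternatives chosen after seeing the data, ran from 18.6% to 32.0%.

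No paired analysis was possible because no result comes from a test across libraries. GC content, repeat masking and motifs around summits, with their alternatives, were not run. The NSC lists were longer at lower tag numbers, and whether ESC libraries carry weaker signal at the members cannot be read from peak lists.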
